A study of Mus musculus with 54 samples.

Results

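The subject is the response to all-trans retinoic acid (ATRA) of a mouse embryonic stem cell line that expresses EZH2 A677T, measured by RNA sequencing. It was taken as the 3 libraries of the treated A677T cells set against the 3 libraries of the undifferentiated A677T cells, over all genes of the deposited table of raw counts. These are 6 of the 54 samples of the series, and 17683 of the 55401 genes in the table had enough counts to be tested. EZH2 is the enzyme of Polycomb repressive complex 2 (PRC2), and the series studied variants of it that are found in Weaver syndrome, a human overgrowth condition. The mESC group of A677T holds undifferentiated cells. The ATRA group of A677T holds cells of the same line after 2i (inhibitors that hold stem cells in the naive state) and LIF were withdrawn and ATRA was given. What the withdrawal did and what ATRA did cannot be told apart in these groups, and the response below is to both. Per the series design, the host cells are heterozygotes that carry a floxed and a deleted Ezh2 allele, and the introduced form comes on top of these. The WT line is the same host with EZH2-WT, in an mESC group and an ATRA group treated alike. The other lines used below are the parental line, the heterozygote (het), and the hosts given EZH2 R679C, K634E, K563E or A733T, each in both states with 3 libraries per group. The labels do not give the promoter of the introduced EZH2, whether a line is 1 clone, the dose or duration of ATRA, or whether replicates are separate cultures. P-values therefore measure the spread between these libraries, which may be technical.

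Retinoic acid enters cells as a small lipid-soluble signal, binds retinoic acid receptors (RARs) that sit on DNA as partners of RXRs, and turns them from repressors into activators. In embryonic stem cells it switches on its own breakdown enzymes, the Hox genes and other regulators of the body axis, while the network that keeps the cells pluripotent shuts down. PRC2 places methyl groups on lysine 27 of histone H3 and holds many of these developmental genes silent until such a signal arrives.

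Many RAR sites are direct repeats of a short half-site with 5 bases between the copies. The promoters of the receptor gene Rarb and of the breakdown enzyme gene Cyp26a1 are printed because both genes rose in A677T and both windows hold such a repeat. They are the 300 bases from 250 before to 50 after the RefSeq start on GRCm38.p6, 5′ to 3′ on the strand of the gene, with the repeat in capitals. Rarb lies at chr14:16575427-16575726 on the minus strand and Cyp26a1 at chr19:37697558-37697857 on the plus strand.
Rarb: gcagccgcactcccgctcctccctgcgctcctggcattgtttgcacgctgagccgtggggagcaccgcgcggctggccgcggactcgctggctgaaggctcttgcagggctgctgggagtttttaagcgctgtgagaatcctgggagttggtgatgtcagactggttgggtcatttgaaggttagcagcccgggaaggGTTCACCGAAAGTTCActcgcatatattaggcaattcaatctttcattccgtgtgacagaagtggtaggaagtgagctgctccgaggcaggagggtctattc
Cyp26a1: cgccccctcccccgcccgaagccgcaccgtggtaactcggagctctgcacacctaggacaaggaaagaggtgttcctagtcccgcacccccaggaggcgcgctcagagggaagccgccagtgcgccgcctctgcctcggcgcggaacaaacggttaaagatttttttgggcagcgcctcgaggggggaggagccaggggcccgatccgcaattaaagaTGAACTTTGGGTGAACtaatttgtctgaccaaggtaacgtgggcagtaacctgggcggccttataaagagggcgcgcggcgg
There are 36 bases between the repeat and the start of Rarb, where it reads on the gene's own strand, and 16 bases in Cyp26a1, where it reads on the opposite strand. The motif searched, on both strands, was GNTCA followed by 6 bases of any kind and GNTCA again, which leaves 5 bases between the hexamers. It occurred in 1.12% of the promoters of genes at least 2-fold higher in A677T after ATRA (23 of 2046), in 0.764% of those at least 2-fold lower (6 of 785), in 0.736% of all genes tested that have a promoter in the table (88 of 11955) and in 0.988% of all RefSeq promoters of this length. A match is a description of letters and not a shown binding site.

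The A677T libraries held 16144503 to 21631792 counts, within the range of 15361598 to 31338825 over the 48 libraries analysed. Levels are given as counts per 1000000 (CPM) after TMM normalisation, which compares a gene between libraries and not 1 gene with another. A gene is called changed where edgeR's quasi-likelihood test gave a Benjamini-Hochberg adjusted p under 0.05 over all genes tested. Fold changes stand on the log2 scale, each with its standard error (SE) where given. Replicate 3 of the A677T mESC group stood apart. The chi-square per degree of freedom between its counts and those of replicates 1 and 2 was 18.1 and 35.9, against 8.85 between replicates 1 and 2 and 4.33 to 9.67 within the A677T ATRA group. In that library counts fell most with the GC content of genes (Spearman correlation across genes of -0.58, against -0.20 and 0.08 in replicates 1 and 2), and mitochondrial genes took 2.7% of counts against 2.05% and 1.67%. As a check of the labels, 5 stem cell markers (Pou5f1, Sox2, Nanog, Zfp42 and Sall4) summed to between 2204 and 2484 CPM in mESC and to between 798.1 and 894.9 CPM in ATRA, and all 5 fell. Fibroblast markers, which feeder cells would bring, summed to between 40.7 and 48.4 CPM in mESC and to between 106.2 and 122.2 CPM in ATRA. Of 13 such markers, Col3a1, Postn and Twist2 had no count in mESC and Lum and Postn none in ATRA. Of the 9 that could be tested 7 rose, Fbln1 alone made up 40.8 and 42 CPM in mESC replicates 1 and 2, and the part of such cells in the results was not tested.

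The response was broad. In A677T, 9786 genes changed, which is 55.3% of those tested, with 5152 higher (29.1%) and 4634 lower (26.2%) after ATRA. Each count of list members that rose or fell is to be read beside these 2 shares. Changes of at least 2-fold were more often upward, with 2993 genes higher (16.9%) and 1200 lower (6.79%). Leaving out any single A677T library gave between 8961 and 9546 changed genes. In bulk RNA, fewer cells of a type and less RNA per cell cannot be told apart, and this holds for each fall and rise given here. A gene silent in mESC could pass the filter on low counts through its ATRA libraries alone. For lists that hold such genes, the count of rises is no support for the list.

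**Figure D1:**
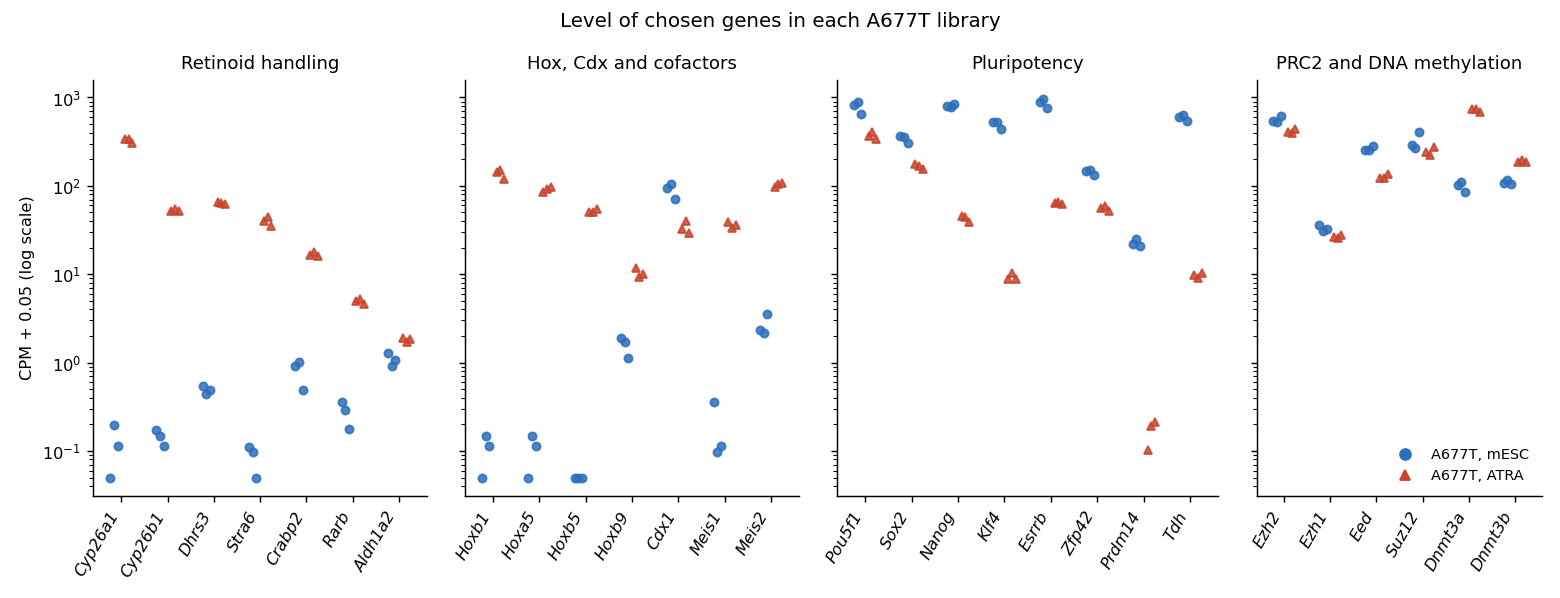
Level of chosen genes in each of the 3 mESC and 3 ATRA libraries of A677T, as CPM plus 0.05 on a log scale, each point 1 library. Cyp26a1 goes from 0 to 0.145 CPM in mESC to between 309.1 and 343 CPM in ATRA, Klf4 falls from between 444.2 and 527.9 CPM to between 8.81 and 10.2 CPM, and Suz12 is the gene shown whose groups overlap.

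Ezh2 itself was lower after ATRA. It stood at 541, 522.7 and 616.3 CPM in the 3 mESC libraries of A677T and at 407.8, 394.9 and 441.9 CPM in the ATRA libraries, and the groups do not overlap. Counts per gene do not say which copy of EZH2 a read came from. The fall was -0.43 (SE 0.0595, adjusted p = 2.92e-08), and it was -0.28 in the WT line, with no difference called between the lines (adjusted p = 0.25). Of the 8 lines, A677T had the highest mean Ezh2 level in mESC (560 CPM, against 439.4 CPM in WT and 280.6 CPM in het).

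Genes that take up, make, bind and break down retinoids rose together in A677T. Of the 17 on the list 15 were tested, 12 rose and 1 fell, with a median log2 change of 2.95, while the median of all genes tested was 0.00. Cyp26a1, the main enzyme that degrades retinoic acid, was at 0, 0.145 and 0.063 CPM in mESC and at 342.7, 343 and 309.1 CPM in ATRA (log2 change 11.99, SE 0.21, adjusted p = 2.43e-39). The related enzymes rose as well, Cyp26b1 from a mean of 0.094 to 53 CPM and Cyp26c1 from 0.0575 to 4.92 CPM. For Cyp26c1 the mESC group held 3 counts in all, and the ratio was 86.8 (95% counting interval 29.4 to 423.2).

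Dhrs3, which turns retinaldehyde back into retinol, rose from 0.49, 0.386 and 0.441 CPM to 65.7, 63.4 and 62.1 CPM (log2 change 7.17, SE 0.18, adjusted p = 2.66e-33). Stra6, a membrane receptor that lets retinol into the cell, reached 40.1, 44.8 and 34.9 CPM from 2 counts in all of the mESC libraries, a ratio of 1063 (95% counting interval 293.9 to 8782). The binding protein gene Crabp2 rose by 4.43 on the log2 scale. Of the enzymes that make retinoic acid, Aldh1a3 rose by 2.95 at under 1 CPM and Rdh10 by 0.37. Aldh1a2 was at 1.23, 0.869 and 1.01 CPM in mESC and at 1.83, 1.68 and 1.81 CPM in ATRA (log2 change 0.78, adjusted p = 0.00669). Without mESC replicate 2 that call was lost (0.64, adjusted p = 0.0556). Dhrs4 was the member that fell, by 0.46 on the log2 scale.

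Among the 12 receptors and coregulators 9 rose and 2 fell, with a median of 0.75. Rarb, itself a receptor gene with the repeat printed above, was at 0.306, 0.241 and 0.126 CPM in mESC and at 4.94, 5.17 and 4.55 CPM in ATRA (log2 change 4.39, SE 0.31, adjusted p = 1.64e-16). The groups are far apart in every library. Rxrg rose by 3.62 from 0.215 to 2.64 CPM, and the more abundant Rara and Rarg rose by 0.90 and 0.87. Nrip1, a corepressor of ligand-bound nuclear receptors, rose from between 21.9 and 26.4 CPM to between 194.3 and 221.7 CPM (log2 change 3.14). The coregulators Ncoa3 and Ncor1 fell by 0.27 and 0.18 on the log2 scale. Only 1 gene of this list fell when ATRA replicate 1 or 2 or mESC replicate 1 or 3 of A677T was left out.

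Of 17 transcription factors and effectors on a list of retinoic acid targets 16 rose, with a median of 3.72. Zfp703, a zinc-finger repressor, went from 0.613, 0.627 and 0.63 CPM to 231.4, 246.4 and 209 CPM (log2 change 8.51, SE 0.16). The Hox cofactor genes Meis1 and Meis2 rose by 8.02 and 5.32. Meis2 reached 97.2, 104.5 and 108.3 CPM from between 2.12 and 3.47 CPM. The member that fell was Cdx1, a caudal-type factor that acts upstream of Hox genes. It stood at 93.9, 103.6 and 71.6 CPM in mESC and at 32.4, 39.5 and 29.3 CPM in ATRA (log2 change -1.41, SE 0.13, adjusted p = 3.25e-12). It fell in the WT line too, by 1.10 on the log2 scale.

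Hox genes, which set position along the body axis, rose by cluster. All 10 HoxA genes tested rose and 9 of 10 HoxB genes did, while 3 of 8 HoxC genes rose and 2 fell, and 4 of 5 HoxD genes rose. Of those tested, 3 HoxA, 4 HoxB, 3 HoxC and 1 HoxD genes had a group at 0 counts. Such genes passed the filter on low counts through the libraries where they were high, so these counts of rises are no support for the lists. The median log2 change was 8.93 for HoxA (8.59 with genes at 0 counts set to their bound) and 10.05 for HoxB (8.30 at the bound), but 0.74 for HoxC. HoxA and HoxB genes started from almost nothing: summed over each cluster the mESC mean was 1.55 and 1.88 CPM, and after ATRA it was 358.5 and 355.1 CPM. HoxC and HoxD went from a summed 1.63 and 0.612 CPM in mESC to 7.90 and 4.72 CPM after ATRA, and so remained low.

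Hoxb1 reached 144.4, 150 and 120.2 CPM from 3 counts over the mESC group, a ratio of 2450 (95% counting interval 838 to 11880). Hoxa5 reached 85.7, 91.4 and 96 CPM, also from 3 counts (ratio 1605, interval 549 to 7786). Hoxb5 had no count in any mESC library and stood at 50, 50 and 55.2 CPM in ATRA, at least 911-fold higher against a floor of 3 counts over the group. By the same floor Hoxa4 was at least 569-fold, Hoxa9 at least 436-fold, Hoxb2 at least 364-fold, Hoxb6 at least 273-fold and Hoxb3 at least 256-fold higher. Induction reached far along both clusters: Hoxa9 was at 26.2, 22.7 and 25.6 CPM in the ATRA libraries and Hoxa10 at a mean of 57.8 CPM, against 0.0693 CPM in mESC. The posterior Hoxa11 and Hoxb13 stayed under 1 CPM. Intervals and floors cover counting error only.

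In HoxC, Hoxc4 and Hoxc5 rose to 5.43 and 2.00 CPM from 2 and 0 counts, and Hoxc13 fell from 1.23, 1.11 and 1.2 CPM to 0.161, 0 and 0.274 CPM (log2 change -3.04). Hoxc12 fell from 10 counts to 0, so it was at least 3.68-fold lower. The call for Hoxc9, at 0.142 CPM after ATRA, was lost when ATRA replicate 1 or any 1 of the 3 mESC libraries of A677T was left out (adjusted p between 0.0565 and 0.0757). In a fit of the A677T libraries alone 2 HoxD genes rose in place of 4.

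**Figure D2:**
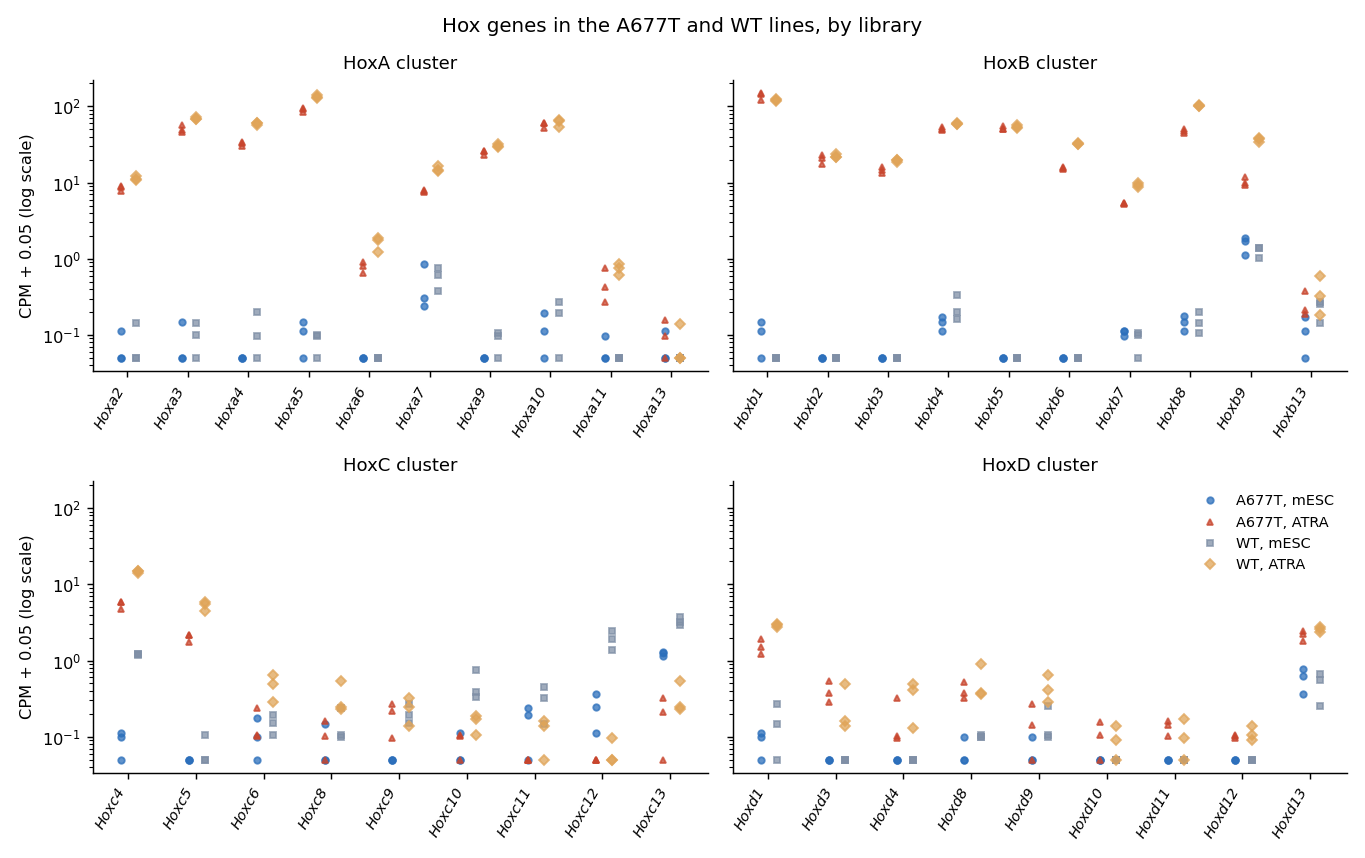
Levels of the Hox genes shown in each library of the A677T and WT lines, as CPM plus 0.05 on a log scale, with 1 panel per cluster and genes in order of their number. After ATRA, 8 HoxB genes of A677T lie above 10 CPM, while no HoxC or HoxD gene of A677T does, and Hoxb6, Hoxb8 and Hoxb9 stand lower in A677T than in WT.

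The naive pluripotency network fell. Of its 26 listed genes 21 fell and 3 rose, with a median log2 change of -2.05. Klf4, a factor that LIF signalling sustains, was at 527.9, 527.6 and 444.2 CPM in mESC and at 8.81, 10.2 and 8.88 CPM in ATRA (log2 change -5.75, SE 0.0869, adjusted p = 3.69e-42). That is a 53.7-fold drop, with every ATRA library far below every mESC library. Tdh, the threonine dehydrogenase on which mouse stem cells rely, dropped 61.4-fold from 604.6, 636.3 and 537.2 CPM to 9.78, 9.03 and 10.2 CPM. Prdm14, a repressor that keeps cells naive, fell from between 20.6 and 24.8 CPM to between 0.0537 and 0.164 CPM (log2 change -7.48). Nanog fell from 797.4, 781 and 839 CPM to 45.6, 44.6 and 38.4 CPM (log2 change -4.23), and Esrrb from 883.6, 969 and 756.7 CPM to 63.5, 65.3 and 61.6 CPM (-3.78). The decline was graded: Zfp42 (Rex1) fell 2.57-fold and Tbx3 by 1.20 on the log2 scale. The 3 that rose were Gbx2 (1.70), Dppa2 (0.63) and Dppa4 (0.22).

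Core pluripotency genes split, with 5 of 11 rising and 6 falling. Pou5f1 (Oct4) stood at 816.5, 884.3 and 651.7 CPM in mESC and at 366.7, 402.3 and 337.7 CPM in ATRA, a 2.13-fold drop (log2 change -1.09, SE 0.0982, adjusted p = 6.72e-13). Sox2 dropped 2.06-fold, from between 305.7 and 362.4 CPM to between 153.2 and 177.1 CPM. The co-receptor gene Tdgf1 fell by 2.15 on the log2 scale. The RNA-binding proteins Lin28a and Lin28b rose by 0.70 and 0.74.

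Genes of the LIF pathway mostly fell, 8 of 12 against 3 that rose, with a median of -0.78. Of all genes 26.2% fell and 29.1% rose. Socs3, the feedback inhibitor that STAT3 induces, went from 107.9, 125.9 and 84.1 CPM to 12, 14.3 and 12.6 CPM (log2 change -3.03, SE 0.13, adjusted p = 2.55e-24). Stat3 fell from between 145.4 and 164.3 CPM to between 23 and 28.3 CPM, and Bcl3 by 3.21 on the log2 scale. Pim1, a kinase gene also counted among STAT3 targets, rose from 55.3, 60.4 and 51.2 CPM to 430.4, 444.1 and 406.1 CPM (log2 change 2.94). The ERK response ran the other way, with 10 of 16 genes rising, 5 falling and a median of 1.17. Its phosphatase gene Dusp6 rose 13.9-fold, from 38, 40.9 and 39.1 CPM to 533.4, 547 and 560.4 CPM. One of the 2i inhibitors blocks the kinase above ERK, and its removal is part of the treatment. The part of that removal in these changes was not tested and cannot be told apart from that of ATRA.

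Of 20 formative and primed epiblast genes 15 rose and 5 fell (median 1.73). The de novo DNA methyltransferase gene Dnmt3a rose 7.31-fold, from 101.3, 110.8 and 84.6 CPM to 736, 745.4 and 691.8 CPM (log2 change 2.87, SE 0.0827, adjusted p = 2.32e-31). Dnmt3b rose 1.71-fold, Sox3 10.2-fold and the growth factor gene Fgf5 by 5.38 on the log2 scale, to between 4.6 and 5.59 CPM. Otx2, a factor of the primed and anterior epiblast, was low and fell, from 0.858, 0.917 and 0.567 CPM to 0.43, 0.0466 and 0.0548 CPM (log2 change -2.16). Foxd3 fell by 1.85 and Zic2 by 0.88 on the log2 scale.

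Among 13 genes for PRC2 subunits and cofactors 7 fell and 4 rose, against 26.2% and 29.1% of all genes, so the rises lay near the share of all genes. Eed, the subunit that reads methylated H3K27, fell 2.08-fold from 254.5, 251.6 and 283.5 CPM to 123.5, 121.2 and 134.8 CPM (log2 change -1.06, SE 0.0567, adjusted p = 5.46e-21). Suz12 was at 291.2, 268.8 and 402.2 CPM in mESC and at 242.9, 222.4 and 272.9 CPM in ATRA, so its groups overlap (log2 change -0.38, adjusted p = 0.0146). Its call was lost without mESC replicate 3 (-0.21, adjusted p = 0.189), without ATRA replicate 1 (-0.36, adjusted p = 0.0574) and without ATRA replicate 2 (-0.30, adjusted p = 0.109). Ezh1, the other catalytic subunit, fell by 0.32 on the log2 scale. Jarid2 and Phf19, which help bring PRC2 to its targets, rose by 0.76 and 1.18. PRC1 subunits moved in both directions, 11 of 23 up and 8 down, against the same shares. Among the chromobox genes Cbx2 rose by 1.24 and Cbx8 by 2.02, and Cbx7 and Cbx6 fell by 0.44 and 1.03 on the log2 scale. Of 14 H3K27 demethylases and other antagonists of Polycomb 7 rose, among them Kdm6b by 0.72 and Kdm6a by 0.47, and 1 fell, or none without ATRA replicate 3 or mESC replicate 2. In the DNA methylation machinery, the imprint protector Zfp57 fell 5.09-fold, Tet1 fell by 0.92 on the log2 scale and Tet3 rose by 2.30.

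Developmental genes that PRC2 covers in embryonic stem cells rose more often than they fell among those tested. Of 86 listed, 61 passed the filter on low counts, which a gene could do through its ATRA libraries alone, and of these 43 rose and 7 fell. Since 10 of the 61 had a group at 0 counts, the count of rises is no support for the list. The median log2 change was 2.99, or 2.18 at the bound. In a fit of the A677T libraries alone 25 rose and 4 fell. Wt1, a regulator of the urogenital ridge, went from 0.306, 0.338 and 0.063 CPM to 61.4, 58.2 and 66.3 CPM (log2 change 7.94, SE 0.22). Msx1 rose from 0.394 to 26.2 CPM, and Gsx1 was at least 61.7-fold higher from 0 counts. The 7 that fell included Olig2 and Olig1, factors of the oligodendrocyte lineage, by 2.78 and 2.59 on the log2 scale from 68.7 and 36.5 CPM.

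Genes on the lists of endoderm, of mesoderm, blood and endothelium, and of neural cells rose in part, and others fell. Of 17 endoderm regulators 13 rose, with a median of 3.16: Gata6 went from 0.429, 0.0483 and 0.252 CPM to 45.8, 47.8 and 46.7 CPM (log2 change 7.65, SE 0.21), and Sox17 reached between 9.65 and 11.8 CPM from 3 counts in mESC (ratio 195, interval 66.5 to 949.4). Both are also markers of extraembryonic endoderm. The 6 markers of extraembryonic endoderm summed to between 5.12 and 5.93 CPM in mESC and to between 108.4 and 111.7 CPM in ATRA, against 179.5 to 180.1 CPM in the ATRA libraries of WT. Of 23 genes of mesoderm, blood and endothelium 11 rose and 4 fell. The receptor gene Kdr rose from between 0.0965 and 0.315 CPM to 42, 32.3 and 34.1 CPM (log2 change 7.27), Tal1 from between 0.063 and 0.289 CPM to 37.8, 30.8 and 33.1 CPM (7.59), and Fli1 was at least 127-fold higher from 0 counts. Markers of blood and endothelium summed to between 64.1 and 81.2 CPM in the ATRA libraries of A677T. In those of WT the sum was between 39.1 and 46.6 CPM. Among these markers Gata1 was not called in A677T (log2 change -0.48, adjusted p = 0.521). Ptprc, the leukocyte marker, had no count in the mESC libraries of either line and was at 0, 0.0466 and 0 CPM in the ATRA libraries of A677T. Kdr and Tal1 made up most of the blood and endothelium sum after ATRA in A677T. Of the gastrulation genes, Eomes fell by 1.69 and T by 0.86 on the log2 scale.

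Of 21 neural genes 13 rose and 6 fell. Pax6 rose from 0.306, 0.482 and 0.882 CPM to 14.2, 13.3 and 13.8 CPM (log2 change 4.63, SE 0.20) and Sox1 from 5.54 to 83.8 CPM. Genes used in neurons went both ways: Stmn2 fell from 279.2 to 36.2 CPM and Tubb3 from 156.6 to 39.3 CPM, while Elavl4 rose from 2.02 to 7.40 CPM and Dcx from 1 count to 52. Neurog2 and Hes5 had no count in the mESC libraries and stayed near 0 in the ATRA libraries of A677T, each at 0.0537, 0 and 0 CPM. Of 12 trophoblast and epithelial genes 6 rose and 3 fell, against 29.1% and 26.2% of all genes. Keratin genes were among those that rose (Krt18 by 2.13, Krt8 by 1.34, and Krt7, with no count in mESC, at least 14.8-fold), as was Hand1, a factor of trophoblast and heart development, at low levels (means of 0.0322 and 0.953 CPM). Tead4, which directs trophoblast fate, fell by 4.13 on the log2 scale from 47.5 CPM.

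Of 26 germline and meiosis genes 21 rose and 1 fell (median 1.30). Stra8, the retinoic acid-induced gate to meiosis, rose 36-fold from 0.919, 1.35 and 2.08 CPM to 52.4, 54.2 and 49.1 CPM (log2 change 5.17, SE 0.12, adjusted p = 4.90e-35). Tdrd1 and Mael, of the piRNA pathway, rose by 3.02 and 2.27. Genes of the 2-cell-like state, a rare state in which stem cells express embryonic genome activation genes, were scarce but rose in 11 of 13 tested, with a median of 4.37 that becomes 2.06 at the bound. Of these 13, 10 had a group at 0 counts and passed the filter on low counts through the libraries where they were high, so the count of rises is no support for the list. Zscan4d was at 0 in every mESC library and at 1.61, 0.605 and 0.548 CPM in ATRA, at least 16-fold higher. Members of this family are near-identical copies, so reads may be split between them. The count was 7 without mESC replicate 2 and 2 in the fit of the A677T libraries alone.

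Imprinted genes rose in 25 of 44 cases and fell in 5, or in 3 without ATRA replicate 1 or mESC replicate 1. Peg10 stood at 103.8, 106.4 and 115.5 CPM in mESC and at 1769, 1747 and 1884 CPM in ATRA (log2 change 4.05, SE 0.0736, adjusted p = 3.88e-39). The growth-restraining Cdkn1c rose 12.5-fold, from 1.41, 1.21 and 1.45 CPM to 17.9, 16.6 and 16.1 CPM, and Grb10 and H19 rose by 2.81 and 3.55. Plagl1, a regulator of the imprinted network, fell by 2.99 on the log2 scale from 103 CPM. Of 25 growth control genes, several linked to overgrowth syndromes in people, 14 rose and 5 fell, against 29.1% and 26.2% of all genes. The insulin-like growth factor binding protein genes Igfbp4, Igfbp3 and Igfbp5 rose by 4.5, 2.38 and 2.28, and Nsd1 was not called (-0.05, adjusted p = 0.5). Of 15 cartilage and skeleton genes 10 rose, among them Fgfr2 by 5.18 and Col2a1 by 4.24.

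Among secreted signals, Lefty1 rose 12.5-fold from 73.7, 79.4 and 52.1 CPM to 892.7, 981.7 and 706.3 CPM, while Lefty2 fell by 1.85 and Bmp4 by 2.88 on the log2 scale. Of 22 WNT genes 7 rose and 7 fell, near the 29.1% and 26.2% of all genes: the feedback genes Sp5, Notum and Axin2 fell by 5.53, 2.91 and 1.17 on the log2 scale, and Lef1 rose by 2.47. The other 2i inhibitor blocks GSK3 and so mimics WNT, and it too is withdrawn. Its part in the changes of WNT genes was likewise not tested and cannot be told apart from that of ATRA. Adhesion genes rose in 13 of 20 cases, with Zeb2 up by 4.14, Twist1 by 2.95 and N-cadherin (Cdh2) by 1.79. E-cadherin (Cdh1) fell by 0.49 on the log2 scale. Cyclin D genes exchanged, with Ccnd2 up from 6.68, 6.71 and 4.85 CPM to 63.6, 57 and 59.2 CPM and Ccnd1 down by 0.80 on the log2 scale. Of 20 replication and proliferation genes 8 rose and 3 fell, with Cdc20 at 0.64 as the largest change. The number that rose was 13 with a correction for GC content and 5 in the fit of the A677T libraries alone.

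**Figure D3:**
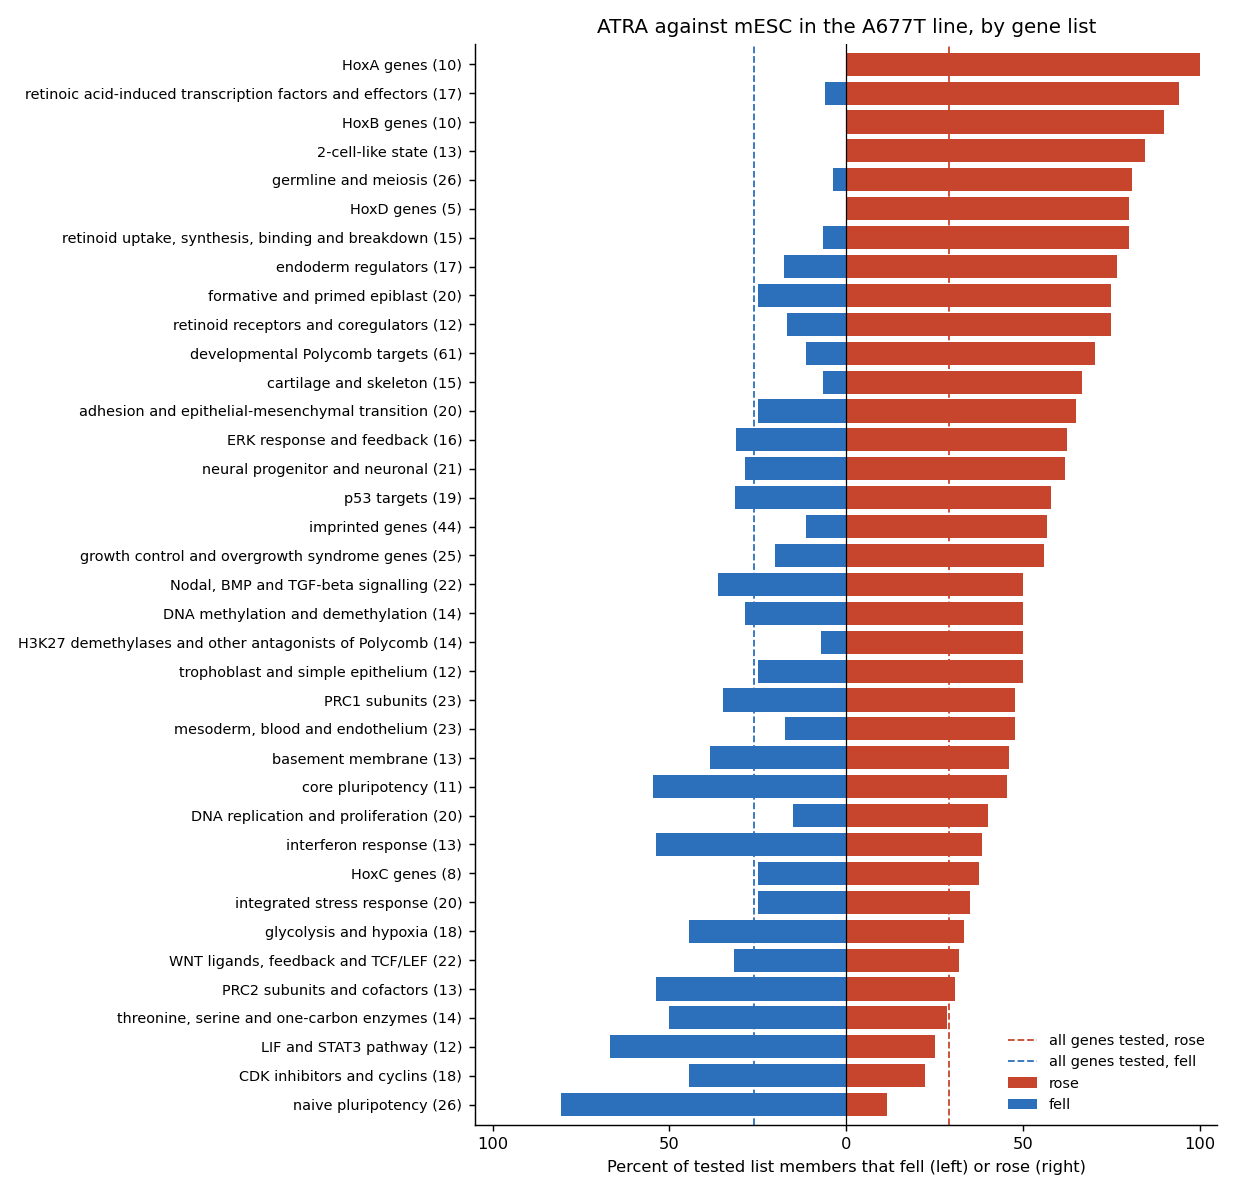
Percent of the tested members of each of the 37 gene lists that rose (right) or fell (left) in A677T after ATRA, with the number tested in brackets. Dashed lines mark all genes tested, of which 29.1% rose and 26.2% fell. HoxA genes all rose, and 21 of the 26 naive pluripotency genes fell.

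The largest single changes lay partly outside these groups. Csn3, the milk protein kappa-casein, had no count in mESC and was at 131.1, 117.5 and 120 CPM in ATRA, at least 2163-fold higher. The glutamate receptor gene Grm6 was at least 208-fold higher and Vstm2b at least 133-fold higher, both from 0 counts. In the other direction the ion channel gene Trpm1 went from 6.43, 7 and 5.61 CPM to 0 in all 3 ATRA libraries, at least 125-fold lower. Vax2os was at least 66.5-fold lower. Csn3 had no count in the mESC libraries of WT either and was at least 1833-fold higher there.

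The comparison with the WT line asks whether the response differs between the 2 lines. The EZH2 form, the descent of each line and the Ezh2 level (means of 560 and 439.4 CPM in mESC) cannot be told apart in it. In WT 10435 genes changed (59%), 5271 higher (29.8%) and 5164 lower (29.2%). Of the genes called higher in A677T 79.1% were also higher in WT, and of those called lower 77.2% were also lower in WT. Taken from the WT side, 77.3% of its higher and 69.3% of its lower genes were shared. For 46 genes higher and 21 genes lower in A677T the call in WT went the other way. Across the 17683 genes the log2 changes of the 2 lines had a Pearson correlation of 0.89 and a slope of 0.90 for A677T on WT, as a description, since genes are not independent.

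**Figure D4:**
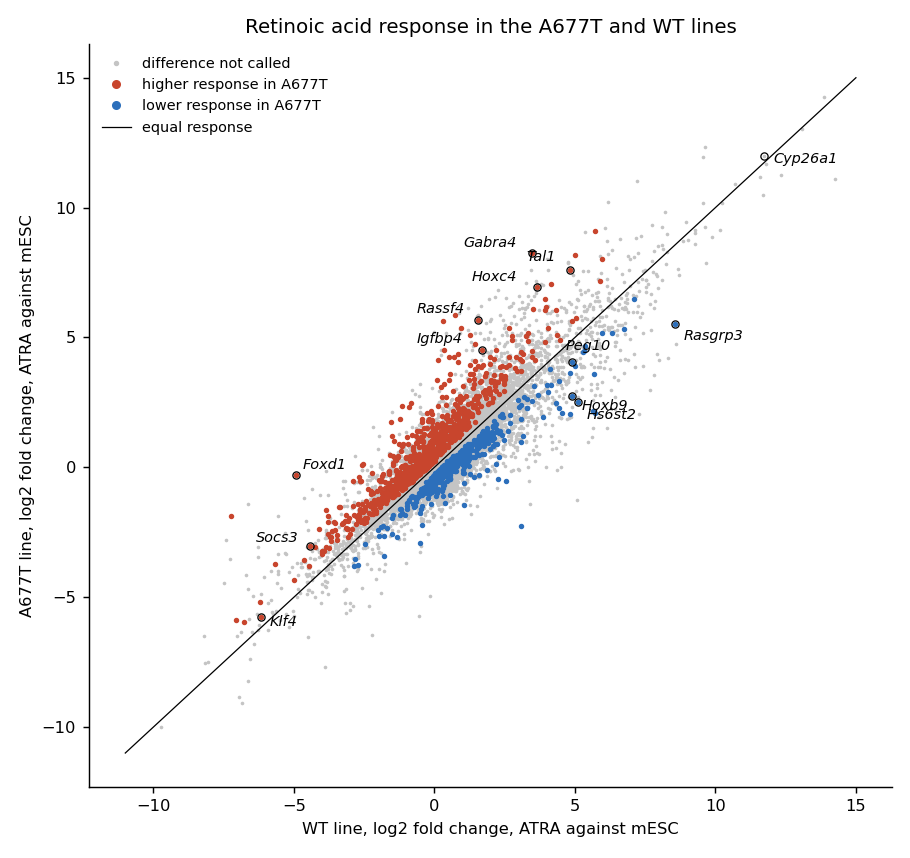
Log2 change after ATRA in A677T (vertical) against that in WT (horizontal), each point 1 gene, with the line of equal response. The 995 genes with a higher response in A677T are red and the 580 with a lower one blue, on either side of that line.

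The difference between the responses was tested directly. It was called in 1575 genes (8.91%), of which 995 had a higher response in A677T (5.63%) and 580 a lower one (3.28%). A higher response means a larger rise or a smaller fall: 485 of the 995 rose and 303 fell in A677T. These counts depended on single libraries. They were 761 without mESC replicate 3 of A677T, 2882 without its mESC replicate 2, 910 without its ATRA replicate 2, 932 without ATRA replicate 3 of WT and 981 without mESC replicate 3 of WT. A fit of both lines alone called 642, and a block for the replicate number within each line called 2687. With library totals as the scale the split was 851 higher and 810 lower. The difference also followed the GC content of genes, with a Spearman correlation across genes of 0.62, against 0.11 for the A677T response alone. With a GC correction 1425 genes were called. Of the 995 and 580, 311 and 156 were called in every setting tried.

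By levels without a GC correction, most of these differences lay in the undifferentiated state. For 81.2% of the 995 genes and 84.1% of the 580, the gap between A677T and WT was larger in mESC than in ATRA. The median A677T minus WT difference over the 995 genes was -0.66 in mESC and 0.03 in ATRA on a log2(CPM + 0.1) scale, and over the 580 genes it was 0.55 in mESC and 0.01 in ATRA. Since the test subtracts mESC values, a gene that starts lower and ends level has a higher response by construction. The shares of 81.2% and 84.1% have no share of all genes beside them. The GC correlation of the mESC libraries was 0.28, 0.31 and 0.45 in WT and -0.20, 0.08 and -0.58 in A677T. In the ATRA libraries it was -0.0035, 0.22 and -0.19 in WT and -0.11, 0.08 and -0.34 in A677T. The part of this trend and of mESC replicate 3 of A677T in the gaps was not tested.

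The genes below kept their call in every setting tried. Rassf4 (chr6:116633008-116673952), a Ras-association domain gene, was at 0, 0.241 and 0.126 CPM in A677T mESC and at 6.66, 6.75 and 7.78 CPM in ATRA. In WT it went from 1.57, 1.05 and 1.55 CPM to 4.64, 3.72 and 3.81 CPM. It started lower and ended higher in A677T, and its response was 4.13 higher (SE 0.46, adjusted p = 1.35e-08). Igfbp4 (chr11:99041244-99054392) went from 1.23, 1.35 and 1.14 CPM to 31.3, 28.6 and 25.2 CPM in A677T and from 8.4, 7.01 and 6.97 CPM to 26.5, 22.6 and 23.1 CPM in WT. The mESC groups of the lines are well apart and the ATRA groups overlap (response 2.82 higher, SE 0.26, adjusted p = 1.84e-10). Tal1 (chr4:115056426-115071755) had a response 2.77 higher (SE 0.515, adjusted p = 0.000276), with 22 to 24.3 CPM in the WT ATRA libraries, all below those of A677T.

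Foxd1 showed the same kind of difference without a response in A677T. It was at 0.429, 0.434 and 0.252 CPM in A677T mESC and at 0.43, 0.233 and 0.274 CPM in ATRA, which overlap, while in WT it fell from between 10.9 and 13.6 CPM to between 0.218 and 0.673 CPM (difference 4.65, SE 0.74, adjusted p = 2.17e-05). Socs3 fell less in A677T than in WT, where it went from between 143.4 and 156.1 CPM to between 6.81 and 7.42 CPM (difference 1.39, SE 0.18, adjusted p = 7.50e-07). Esrrb and Tdh also fell less, by differences of 0.70 (adjusted p = 1.15e-06) and 0.82 (adjusted p = 4.12e-06). After ATRA both stood higher in A677T, Esrrb at 63.5 against 48.5 CPM and Tdh at 9.67 against 6.17 CPM in the means. Of the 26 naive genes 8 had a higher response than in WT and none a lower one, against 5.63% and 3.28% of all genes. The median difference over the list was 0.15, against 0.04 over all genes, and the list's median response was -2.05 in A677T and -2.88 in WT. Klf4 was among the 8 (0.43, adjusted p = 0.0142), and its call was lost without mESC replicate 3 (0.35, adjusted p = 0.0763) or ATRA replicate 2 (0.35, adjusted p = 0.09) of A677T and without mESC replicate 3 (0.37, adjusted p = 0.0698) or ATRA replicate 3 (0.39, adjusted p = 0.0517) of WT. With a GC correction its difference was 0.26. Sox3 and the PRC1 gene Cbx2 rose more in A677T, by 0.87 and 0.67, and by 0.48 and 0.43 with the GC correction.

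Hoxb9 (chr11:96271457-96276595) rose less in A677T. It went from 1.84, 1.64 and 1.07 CPM to 11.8, 9.27 and 9.92 CPM in A677T and from 0.962, 1.34 and 1.33 CPM to 36.8, 38.4 and 34.5 CPM in WT. The mESC groups overlap and the ATRA groups are far apart (difference -2.16, SE 0.24, adjusted p = 1.69e-08). Other Hox genes also ended lower in A677T, where the HoxA and HoxB sums after ATRA were 358.5 and 355.1 CPM against 498.6 and 457.8 CPM in WT. Hoxb8 reached between 45.1 and 50.4 CPM against 100.9 to 103.9 CPM, and Hoxb6 between 15.07 and 15.95 CPM against 31.9 to 32.8 CPM, with no overlap. Their differences in response were not called, but with few or no counts in mESC in both lines that test says little about them (SE 0.876 for Hoxb8, and Hoxb6 had no mESC count in either line). Hoxc4 had a higher response in A677T, from 2 counts in mESC against between 1.14 and 1.17 CPM in WT, and it ended lower, at 4.71 to 5.82 CPM against 14 to 15 CPM (fitted difference 3.30, adjusted p = 0.000395, whose size depends on the handling of low counts). Rhox5, a homeobox gene of the X chromosome, and Hs6st2, a heparan sulfate sulfotransferase gene, rose less in A677T by 2.43 and 2.60 from higher starting levels (means of 1.62 and 1.30 CPM against 0.355 and 0.301 CPM). Meis2 and Peg10 likewise started higher in A677T and rose less, by 1.43 and 0.86. Zfp57 fell further in A677T, to 114.9, 110.2 and 121.7 CPM against 190.9 to 217.1 CPM in WT (difference -0.67, SE 0.0935, adjusted p = 2.09e-06).

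**Figure D5:**
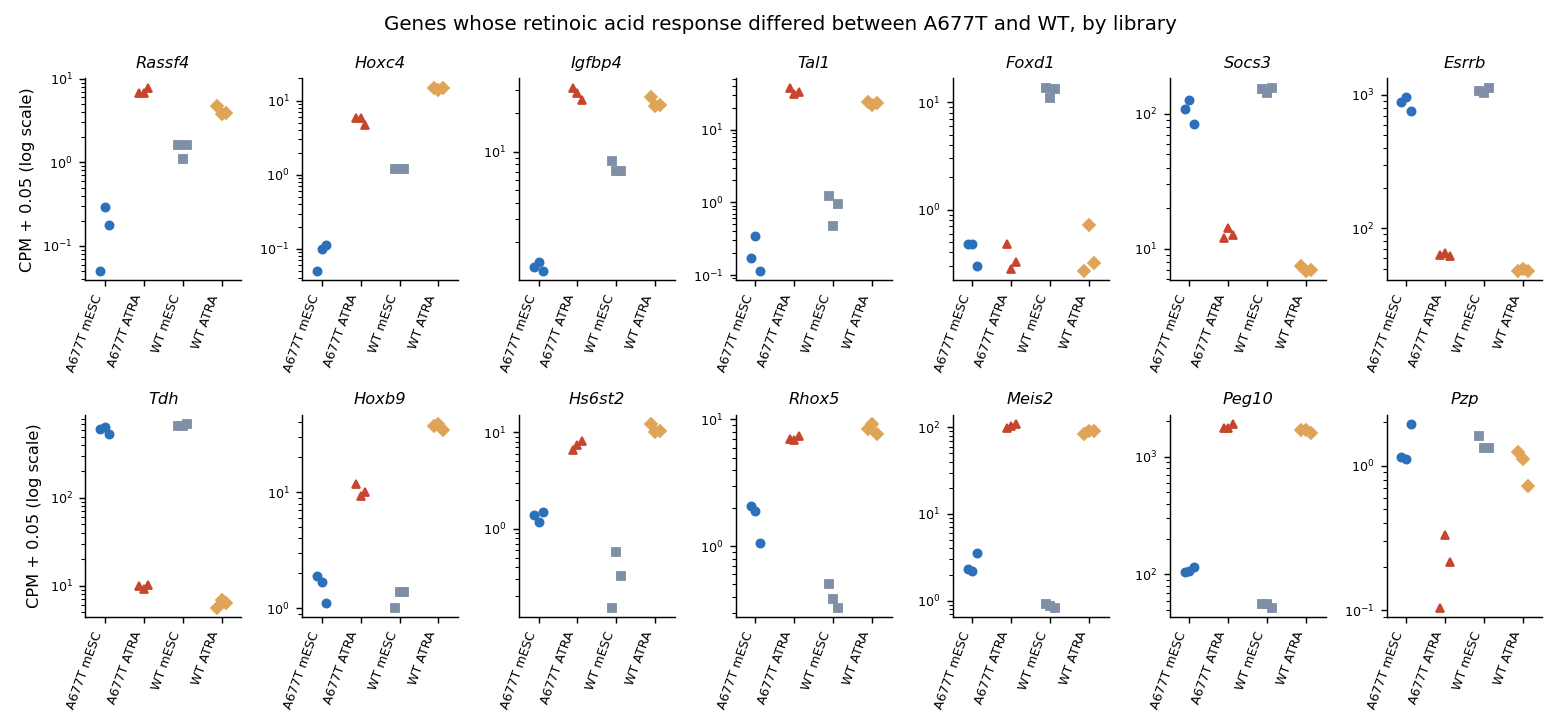
CPM plus 0.05 on log scales of 14 genes in each mESC and ATRA library of A677T and WT, with a scale of its own per gene. Rassf4, Hoxc4, Igfbp4, Tal1 and Foxd1 lie lower in A677T mESC than in WT mESC, and Hoxb9 lies lower in A677T ATRA than in WT ATRA.

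Of the 15 tested genes of retinoid handling 3 had a higher response in A677T, against 5.63% of all genes, namely Dhrs3 (1.26, adjusted p = 0.0179), Crabp2 (1.35, adjusted p = 0.00464) and Aldh1a2 (0.94, adjusted p = 0.0495), and none a lower one. For Dhrs3 and Crabp2 the WT and A677T ATRA levels were alike (means of 62.9 and 63.8 CPM, and of 16.6 and 16.7 CPM) and the mESC levels were lower in A677T. Without mESC replicate 3 of A677T the adjusted p was 0.0593 for Dhrs3 and 0.0519 for Crabp2, and for Dhrs3 it was 0.0836 and 0.108 without mESC replicates 2 and 3 of WT. The call for Aldh1a2 was lost in most other settings, with 0.142 as the adjusted p without a filter on low counts. For Cyp26a1 the difference was 0.25 (SE 0.886, adjusted p = 0.896). Stra8 rose to 52.4, 54.2 and 49.1 CPM in A677T and to between 103 and 119.1 CPM in WT (difference -0.79, adjusted p = 0.0112), a call lost without mESC replicate 3 of A677T (-0.49, adjusted p = 0.368).

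Set against the mean response of the other 7 lines, which include WT, the A677T response differed in 1304 genes (7.37%), 790 higher (4.47%) and 514 lower (2.91%). In 1075 of the 1304 the A677T change lay outside the range of the other 7. The 1304 were chosen by their distance from the mean of these lines, so the 1075 is partly fixed by that choice. No share over all genes stands beside it. The count of genes that differed was 675 without mESC replicate 3, 2122 without mESC replicate 2 and 725 without ATRA replicate 2 of A677T. It was 853 without ATRA replicate 1 of A677T and 2036 with the block within each line. With library totals 667 were higher and 718 lower. Of the genes that differed from WT, 606 of the 995 and 355 of the 580 were called here too, and both comparisons use the same A677T libraries.

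Rassf4 differed from the mean of the other lines in every setting tried (3.17). Its log2 change was 5.68 in A677T, 4.26 in R679C, 4.5 in K634E and 4.85 in K563E, but 1.54 in WT, 0.93 in the parental line, 0.79 in het and 0.64 in A733T. Tal1 and Igfbp4 had a like order: Igfbp4 rose by 4.5 in A677T, 3.53 in R679C, 3.16 in K634E and 3.48 in K563E, and by 1.69 in WT, 1.36 in A733T and 0.06 in het, with -0.21 in the parental line. Their differences from the mean of the other lines were 2.82 (SE 0.43, adjusted p = 9.27e-06) and 2.64 (SE 0.22, adjusted p = 2.89e-12). Hoxb9 had the smallest rise of the 8 lines in A677T, 2.75 against 3.46 in R679C, the next, and 4.91 in WT, the highest (difference -1.34, SE 0.19, adjusted p = 2.13e-06). After ATRA its mean was 10.3 CPM in A677T and between 19.9 and 97 CPM in the other lines. Socs3 fell least in A677T (-3.03, against -3.61 in R679C, the next, to -4.43 in het), with a difference of 1.06 (SE 0.13, adjusted p = 2.93e-07).

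Esrrb did not follow that order. Its change of -3.78 in A677T lay near those of the parental line (-3.56) and A733T (-3.74) and apart from R679C, K634E and K563E (-4.85 to -5.17), and the difference from the mean of the other lines was 0.67 (SE 0.0718, adjusted p = 3.97e-09). Over all genes the A677T response had a Pearson correlation of 0.92 with that of R679C, 0.91 with K634E, 0.90 with K563E, 0.89 with WT, 0.87 with het, 0.86 with A733T and 0.85 with the parental line. Genes changed numbered between 9755 and 10435 in the other 7 lines, so A677T with 9786 lay within their range.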

How the data were processed

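The deposited table holds raw read counts per gene, and the authors made them, per the submitters' processing notes, with cutadapt 3.2, STAR 2.7.3a and featureCounts 1.6.4 on mm10. The notes also list DESeq2 1.38.3. Of its 54 sample columns 48 matched a label, in 16 groups of 3 by line and state, and 6 columns matched none and were not analysed here. Gene symbols came from the GENCODE M21 annotation (55141 identifiers found, 260 not) and promoters from RefSeq.

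All 48 libraries were fitted together with edgeR 4.0.16 in R 4.3.3 (filterByExpr, TMM, robust quasi-likelihood test, 32 residual degrees of freedom), with Benjamini-Hochberg adjustment over the 17683 genes tested and a threshold of 0.05. The A677T response is ATRA minus mESC, and its differences from WT and from the mean of the other 7 lines are contrasts of the same fit. Alternatives were DESeq2 1.42.0, RLE size factors, library totals, no filter, a lowess offset on GC content (span 0.3) and a replicate block. Further ones were a fit of the compared lines alone, and each A677T and WT library left out. The fit of the compared lines held only the A677T libraries for the A677T response. For the difference from WT it held the libraries of both lines. A GC offset with mESC replicate 3 of A677T left out was added after seeing the data. Counts were also simulated for 17478 genes, with no response in A677T and WT except in a small set of A677T genes above 1 CPM. On these the A677T contrast recovered 64.2% of 1.5-fold and 89.6% of 2-fold changes with 10 false calls. The difference from WT recovered 40.3% and 79.1% with 8 false calls. The simulation had no GC trend and no library that stood apart, unlike these data. Its false calls are therefore no error rate for the calls made here.

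The deviations of same-numbered mESC and ATRA libraries of A677T from their group means had correlations of 0.12, 0.63 and 0.68 across genes. Replicate 1 of mESC had a higher correlation with ATRA replicate 2 (0.34) than with ATRA replicate 1. The main fit held no term for such pairs, and only the replicate blocks did. Same-numbered libraries of A677T thus deviated together for replicates 2 and 3. Those of WT did not (0.09, -0.14 and -0.29).

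The comparison, the gene lists and the 183 named genes were chosen with earlier results of these data known. Genes were named as the 12 per direction with the largest responses, 8 per direction for the difference from WT and 4 for that from the other lines, among genes with at least 1 CPM in a group, up to 4 per list, and a panel of 36. Further list members were named after their values were seen, to describe a list. Some genes that these rules name are not reported here.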

Additional observations from a re-analysis of the deposited data

Results flagged for a closer look

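The A677T response was set against that of WT and against the mean of the other 7 lines by a direct test of the difference (edgeR's quasi-likelihood test, 3 libraries a group). It was called in 1575 genes against WT and in 1304 against the mean of the other lines. The named genes among them follow, as A677T minus WT on the log2 scale unless another base is given. Where a group holds 3 or fewer counts, the fitted size depends on the handling of low counts. This holds for Gabra4, Hoxc4, Tceal5, Srms, Phactr3, Rtn4rl2, Ikbke, Igfbp7 and Zscan4f in A677T mESC, for Klk11 in A677T ATRA, and for Nostrin, Srgn, Rasgrp3, Gabrg1 and Zscan4f in WT mESC.

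Many of these calls were not kept by every setting. Of the 60 named differences from WT 20 kept their call in each setting that gave a value: Foxd1, Rassf4, Tceal5, Hoxc4, Rtn4rl2, Hs6st2, Rhox5, Pzp, Hoxb9, Cbx2, Esrrb, Igfbp4, Meis2, Peg10, Plk2, Socs3, Sox3, Tal1, Tdh and Zfp57. The other 40 lost it in at least 1 setting. The number lost was 28 without mESC replicate 3 of A677T, 23 without mESC replicate 3 of WT, 20 without ATRA replicate 1 of A677T or ATRA replicate 3 of WT, and between 7 and 18 without any other single library of these lines. It was 27 in the fit of both lines alone, 15 with the GC offset and 5 with the replicate block within each line.

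Among the genes with the largest higher responses, the differences were 4.79 for Gabra4, 4.65 for Foxd1, 4.13 for Rassf4, 3.81 for Tceal5, 3.37 for Srms, 3.31 for Phactr3, 3.30 for Hoxc4 and 3.21 for Rtn4rl2. Among those with the largest lower responses they were -3.61 for Nostrin, -3.47 for Srgn, -3.03 for Rasgrp3, -2.77 for Cdx4, -2.60 for Hs6st2, -2.43 for Rhox5, -2.43 for Pzp and -2.16 for Hoxb9. Of the 21 settings that gave a value, Nostrin lost its call in 14, Cdx4 in 11 (adjusted p = 0.359 without mESC replicate 3 of A677T), Srgn in 9 and Phactr3 in 8. Of 22 settings Srms lost it in 7, Rasgrp3 in 5 and Gabra4 in 1.

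For retinoid genes and their targets the differences were 0.94 for Aldh1a2, 1.35 for Crabp2, 1.26 for Dhrs3, -0.41 for Nrip1, 2.04 for Meis1, -1.43 for Meis2 and -0.79 for Stra8. For pluripotency, LIF and epiblast genes they were 0.70 for Esrrb, 0.82 for Tdh, 0.43 for Klf4, 0.46 for Sox2, -0.43 for Lin28b, 0.72 for Bcl3, 1.39 for Socs3, 0.46 for Pim1, 2.75 for Fgf5, 0.87 for Sox3, 0.84 for Pou3f1 and 1.18 for Lrrc34. For chromatin and imprinted genes they were 0.67 for Cbx2, 0.93 for Phf19, -0.50 for Yaf2, 0.38 for Kdm6b, -0.67 for Zfp57, -0.86 for Peg10 and -1.18 for Cdkn1c. With the GC offset the call was lost for Kdm6b (0.10, adjusted p = 0.558), Lin28b (-0.17, adjusted p = 0.177), Bcl3 (0.36, adjusted p = 0.183), Pou3f1 (0.49, adjusted p = 0.0933), Pim1 (0.25, adjusted p = 0.0507), Nrip1 (-0.25, adjusted p = 0.0678), Aldh1a2 (0.88, adjusted p = 0.0756) and Yaf2 (-0.40, adjusted p = 0.0552). Over the 22 settings Aldh1a2 lost its call in 17, Kdm6b and Yaf2 in 12, Lin28b in 11, Nrip1 in 7, Phf19, Meis1, Klf4 and Lrrc34 in 6, and Pou3f1 in 4. Dhrs3, Stra8 and Bcl3 lost it in 3, Fgf5 and Cdkn1c in 2, and Crabp2, Sox2 and Pim1 in 1.

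For lineage, adhesion and matrix genes the differences were 2.77 for Tal1, 0.40 for Lamb1, -1.16 for Cdh6, 0.96 for Twist1, 0.76 for Col2a1 and -1.15 for Fgfr2. For signalling, growth and metabolic genes they were -0.35 for Dusp5, -0.31 for Dusp6, 1.97 for Inhbb, 2.82 for Igfbp4, 3.52 for Igfbp7, 3.98 for Ikbke, 0.98 for Bbc3, -0.75 for Perp, -0.49 for Plk2, 0.33 for Mcm2, -1.34 for Ndrg1 and 0.34 for Shmt1. With the GC offset the call was lost for Col2a1 (0.44, adjusted p = 0.204), Twist1 (0.70, adjusted p = 0.157), Lamb1 (0.28, adjusted p = 0.0782), Cdh6 (-0.98, adjusted p = 0.0708) and Igfbp7 (3.27, adjusted p = 0.0595), and Bbc3 was at 0.61 and Dusp5 at -0.58, both called. Over the settings Col2a1 lost its call in 15, Lamb1, Fgfr2 and Igfbp7 in 11, Bbc3 (adjusted p = 0.219 without mESC replicate 3 of A677T) and Dusp5 in 10, Twist1 and Inhbb in 9, and Cdh6 and Mcm2 in 7. Shmt1 lost it in 5, Ikbke in 4, Dusp6 and Perp in 3 and Ndrg1 in 1.

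Against the mean of the other lines the differences were 4.27 for Gabra4, 3.52 for Ikbke, 3.32 for Igfbp7, 3.17 for Rassf4, -4.01 for Klk11, -3.83 for Zscan4f, -3.14 for Gabrg1 and -3.06 for Cdx4. Without mESC replicate 3 of A677T 7 of these 8 calls were lost, and Rassf4 kept its call in every setting. The values there were -0.49 for Zscan4f (adjusted p = 0.9999), 4.29 for Gabra4 (0.110), 2.86 for Igfbp7 (0.145), -3.09 for Gabrg1 (0.119) and -2.44 for Cdx4 (0.189), with Ikbke and Klk11 lost as well. Klk11 was lost in 8 of 21 settings, among them DESeq2 (-3.34, adjusted p = 0.0525) and each ATRA library of A677T left out.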

How the results depend on the processing

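Over the alternatives, 2885 of 2909 values for single genes of the A677T response kept their direction and their side of the threshold, and so did 1480 of 1771 for the difference from WT. The A677T response called 9660 genes with DESeq2, 10360 with the GC offset and 7220 with the A677T libraries alone. It called 10163 with the replicate block and 10237 with the replicate block within each line. The median of all genes moved from 0.00 to at most 0.12 (GC offset with mESC replicate 3 of A677T left out). The replicate block moved no count for the A677T response by over 1.5 times. Against WT, 642 genes differed with both lines alone (426 higher, 216 lower) and 2687 with the replicate block within each line (1682 higher, 1005 lower), and 657 were higher with the added GC offset. Against the mean of the other lines, 1963 differed with the replicate block and GC offset (1194 higher) and 2036 with the replicate block within each line (1226 higher, 810 lower). Leaving out 1 library gave between 761 and 2882 genes against WT (485 to 1796 higher, 276 to 1086 lower) and between 675 and 2122 against the other lines (418 to 1298 higher, 231 to 824 lower). Of the calls 66.1% higher and 65.2% lower in A677T were made in every setting tried, against 31.3% and 26.9% for the difference from WT.

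Differences from WT that were not called and changed sign were those of 3 genes, and the cause was not tested. Otx2 (0.03) was at -0.10 with the added GC offset, -0.01 with library totals, -0.03 with the replicate block within each line and between -1.63 and 0.51 without single libraries. Cyp26a1 (0.25) ranged from -0.61 to 1.39 and Prdm14 (0.56) from -0.01 to 1.06 without single libraries. The few counts of Cyp26a1 in mESC and of Prdm14 in ATRA limit the precision of both differences.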

Other observations

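Interferon-linked genes moved in both directions in A677T after ATRA, with 5 of 13 tested rising and 7 falling, against 29.1% and 26.2% of all genes. Oasl2, of the antiviral oligoadenylate synthetase family, rose from 0, 0.0965 and 0.126 CPM to 11.1, 9.73 and 10.1 CPM (log2 change 6.98, SE 0.28). The RNA sensor gene Ddx58 fell from 80.6 to 10.4 CPM and the apoptosis factor gene Xaf1 from 3.92, 3.81 and 5.99 CPM to 0.376, 0.14 and 0 CPM. The signal transducer gene Stat2 fell by 0.99 on the log2 scale, and Irf1 fell less than in WT (-0.55 against -1.36, adjusted p of the difference 0.000602). Of 13 basement membrane genes 6 rose and 5 fell: the collagen genes Col4a1 and Col4a2 rose by 2.02 and 2.84, and the nidogen genes Nid1 and Nid2 fell by 1.44 and 0.86 on the log2 scale. The number that fell was 3 without mESC replicate 1.

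Of 18 glycolysis and hypoxia genes 6 rose and 8 fell. For this list and those below, 29.1% of all genes tested rose and 26.2% fell in A677T. In WT these shares were 29.8% and 29.2%. The glucose transporter gene Slc2a1 rose by 2.01, and Pfkp and Ldha fell by 1.81 and 0.51 on the log2 scale. Ndrg1 was at 15.4, 17.1 and 11.2 CPM in mESC and at 2.52, 3.17 and 1.04 CPM in ATRA, and it fell further than in WT (difference -1.34, adjusted p = 0.00902). In the integrated stress response 7 of 20 genes rose and 5 fell, near the shares of all genes, while 5 rose and 11 fell in WT. Chac1, a glutathione-degrading enzyme of that response, rose in A677T and fell in WT (0.82 and -1.17, adjusted p of the difference 1.07e-05). Of 14 threonine, serine and one-carbon enzymes 4 rose, near the share of all genes, and 7 fell. Gcat, which acts after Tdh, was down by 1.47 on the log2 scale. The number that rose was 2 without mESC replicate 3. Of 19 p53 targets 11 rose and 6 fell, with Plk2 up by 1.6 and Gdf15 down by 2.25 on the log2 scale.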
